A study of Mus musculus with 32 samples.

Results

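Smooth muscle contractile genes are described here in 32 RNA sequencing libraries of mouse ovarian carcinoma models and normal reproductive tissue. The members are Acta2, Actg2, Myh11, Mylk, Cnn1, Tagln, Lmod1, Smtn, Des and Synpo2, taken by symbol from the gene table, and all 10 listed symbols had a row among the 55450 genes. All 10 passed the filter on low counts in every fit. Levels are given as CPM, counts scaled to a common library total with TMM factors from all 32 libraries. Where genes are compared with each other, TPM values, which also divide by transcript length, are used.

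The 26 tumours belong to 4 models, all in female mice, and each model was sequenced as primary tumours (GEMM, arisen in the engineered animal) and as allografts. All models carry Brca1 fl/fl and the K18GT121 Tg/+ transgene, in which the K18 promoter drives an inhibitor of Rb in epithelial cells. OSE-BPR mice (Trp53 fl/fl, FVB strain) received adenoviral Cre under the ovarian bursa, and 3 GEMM tumours and 5 allografts were sequenced. Ad-BPR mice (Trp53 fl/fl, C57Bl/6) received adenoviral Cre in the oviduct (2 GEMM tumours, 4 allografts). Pax8-BPR mice (Trp53 fl/fl, Pax8-CreERT2 Tg/+, C57Bl/6) received tamoxifen (4 GEMM tumours, 2 allografts). Ovgp1-BPR mice (Trp53 KozR172H ki/+ by the sample labels, Ovgp1-CreERT2 Tg/+, C57Bl/6) also received tamoxifen (3 GEMM tumours, 3 allografts). The Ovgp1-BPR genotype is given with floxed Trp53 in the series description, and the difference is not settled here. Normal ovary and normal oviduct came from the same 3 wild type C57Bl/6 animals. Ages are not in the labels, nor is the tumour each allograft was grown from, and grafts within a group might come from 1 tumour. Libraries held 13987122 to 20514825 assigned counts, with a median of 17426861.

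Smooth muscle cells contract when a myosin heavy chain pulls on actin filaments after a kinase has phosphorylated the myosin light chain, and calponin, transgelin, smoothelin and leiomodin bind or shape those filaments. Serum response factor (SRF) and its muscle cofactor myocardin switch these genes on through a DNA element called the CArG box. The oviduct carries a muscular wall, and the ovary has muscle in its vessels and stroma. Activated fibroblasts of tumours, called myofibroblasts, and pericytes of small vessels also make Acta2 and Tagln, while Myh11, Actg2, Lmod1, Cnn1 and Des are more typical of differentiated muscle. In bulk RNA, fewer cells of a type and less RNA per cell cannot be told apart.

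All members are protein-coding genes, and their positions are from GENCODE M21 on GRCm38. The actin genes were Acta2 (ENSMUSG00000035783) at chr19:34241090-34255590 and Actg2 (ENSMUSG00000059430) at chr6:83512905-83536265, both on the minus strand. The motor genes were Myh11 (ENSMUSG00000018830) at chr16:14194535-14291372 on the minus strand and Mylk (ENSMUSG00000022836) at chr16:34745210-35002420 on the plus strand. Of the filament-binding genes, Tagln (ENSMUSG00000032085) at chr9:45929619-45936058 and Smtn (ENSMUSG00000020439) at chr11:3517523-3540612 were on the minus strand. Cnn1 (ENSMUSG00000001349) at chr9:22099216-22109630 and Lmod1 (ENSMUSG00000048096) at chr1:135324807-135368065 were on the plus strand. The scaffold genes were Des (ENSMUSG00000026208) at chr1:75360329-75368579 on the plus strand and Synpo2 (ENSMUSG00000050315) at chr3:123076519-123236149 on the minus strand. Counts are over each whole gene.

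The DNA before the start of these genes was searched because the members fell together in tumours. The RefSeq promoter table (GRCm38.p6, 250 bases before to 50 after the start) held 7 of the 10 members. Actg2, Myh11 and Tagln had no entry. The RefSeq start is not always the outer end of the GENCODE gene: it lies 39740 bases inside Mylk, 1320 inside Smtn and 217 inside Acta2, and within 37 bases of the end for the other 4. The strict CArG box (CC, a core of 6 bases that are all A or T, then GG, a pattern that reads alike on either strand) was in 1.64% of 32544 promoters and in 0 of the 7. A relaxed CArG box, with at most 1 G or C in the core, was in 9.96% of all promoters and in 1 of the 7, Acta2. The letters CATTCC, on either strand, the core of the site of TEAD factors, were in 14.6% of all promoters and in 4 of the 7 (Acta2, Smtn, Mylk and Lmod1). The letters TATAA, on either strand, were in 24.82% of promoters and in 2 of the 7, Acta2 and Synpo2. The CArG and CATTCC matches are printed within 30 bases each (GRCm38.p6), read 5′ to 3′ along the gene's strand, with the match in capitals (GGAATG is CATTCC on the other strand).
Acta2, relaxed CArG box, chr19:34255438-34255467 (minus strand): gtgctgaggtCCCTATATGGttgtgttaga
Acta2, relaxed CArG box, chr19:34255388-34255417 (minus strand): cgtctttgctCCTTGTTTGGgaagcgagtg
Acta2, CATTCC, chr19:34255502-34255531 (minus strand): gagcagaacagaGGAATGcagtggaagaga
Smtn, CATTCC, chr11:3539497-3539526 (minus strand): cggtttgtggcaCATTCCggactttggctt
Mylk, CATTCC, chr16:34784780-34784809 (plus strand): tgcagttcagaaCATTCCctggtacgtgca
Lmod1, CATTCC, chr1:135324671-135324700 (plus strand): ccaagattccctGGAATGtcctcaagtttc
A match is a description of the letters only, and binding was not measured.

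Normal tissue set the scale for the tumours. All 10 members rose from ovary to oviduct, by 3.62-fold (Mylk) to 13.5-fold (Des), beside a background of 28.5% of 17334 genes called higher (edgeR quasi-likelihood F test, Benjamini-Hochberg adjusted p under 0.05). With the animal as a block all 10 passed too, beside 25.6%. The members' median log2 fold change was 2.5, and that of all genes was 0.017. Acta2, the vascular and general smooth muscle actin, had 3816, 3387 and 2361 CPM in the 3 oviducts and 925.7, 734.1 and 757 CPM in the 3 ovaries. Myh11, the smooth muscle myosin heavy chain, had 3644, 3706 and 3259 CPM in oviduct and 726.4, 564.9 and 615 CPM in ovary. The tissues did not overlap for either gene, nor for the other 8 members. Des, the intermediate filament of muscle, had the widest gap, with 1250 ± 113 CPM in oviduct and 98.4 ± 21 CPM in ovary (SD, n = 3 each), a log2 fold change of 3.76 ± 0.18 (standard error, adjusted p = 1.2e-05). Cnn1, the calponin of differentiated smooth muscle, followed with 3.45 ± 0.21 (adjusted p = 2.7e-05).

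By length-corrected level, the oviduct's members ran from Acta2 (3230 ± 745 TPM) and Tagln (2460 ± 161) through Actg2 (1420 ± 459), Myh11 (875 ± 70.3), Cnn1 (871 ± 206) and Mylk (833 ± 104) to Des (724 ± 46.5), Smtn (337 ± 13.5), Synpo2 (91.8 ± 8.38) and Lmod1 (84.9 ± 7.88), each a mean and SD of 3 libraries. The oviduct libraries also differed in ovarian content. The summed level of 10 granulosa, theca and luteal genes was 1900 TPM in oviduct 1, 81.1 TPM in oviduct 2 and 1080 TPM in oviduct 3, against 13000 to 15100 TPM in ovary. Oviduct 2, with the least of this RNA, lay above all 3 ovaries for all 10 members. When the spread was taken from all 32 libraries, 6 of the 10 members passed, and fewer did with oviduct 2 as the only oviduct. The share of all genes called in these fits is not given here, so the counts have no background beside them. All 10 had positive log2 fold changes in both fits.

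**Figure D1:**
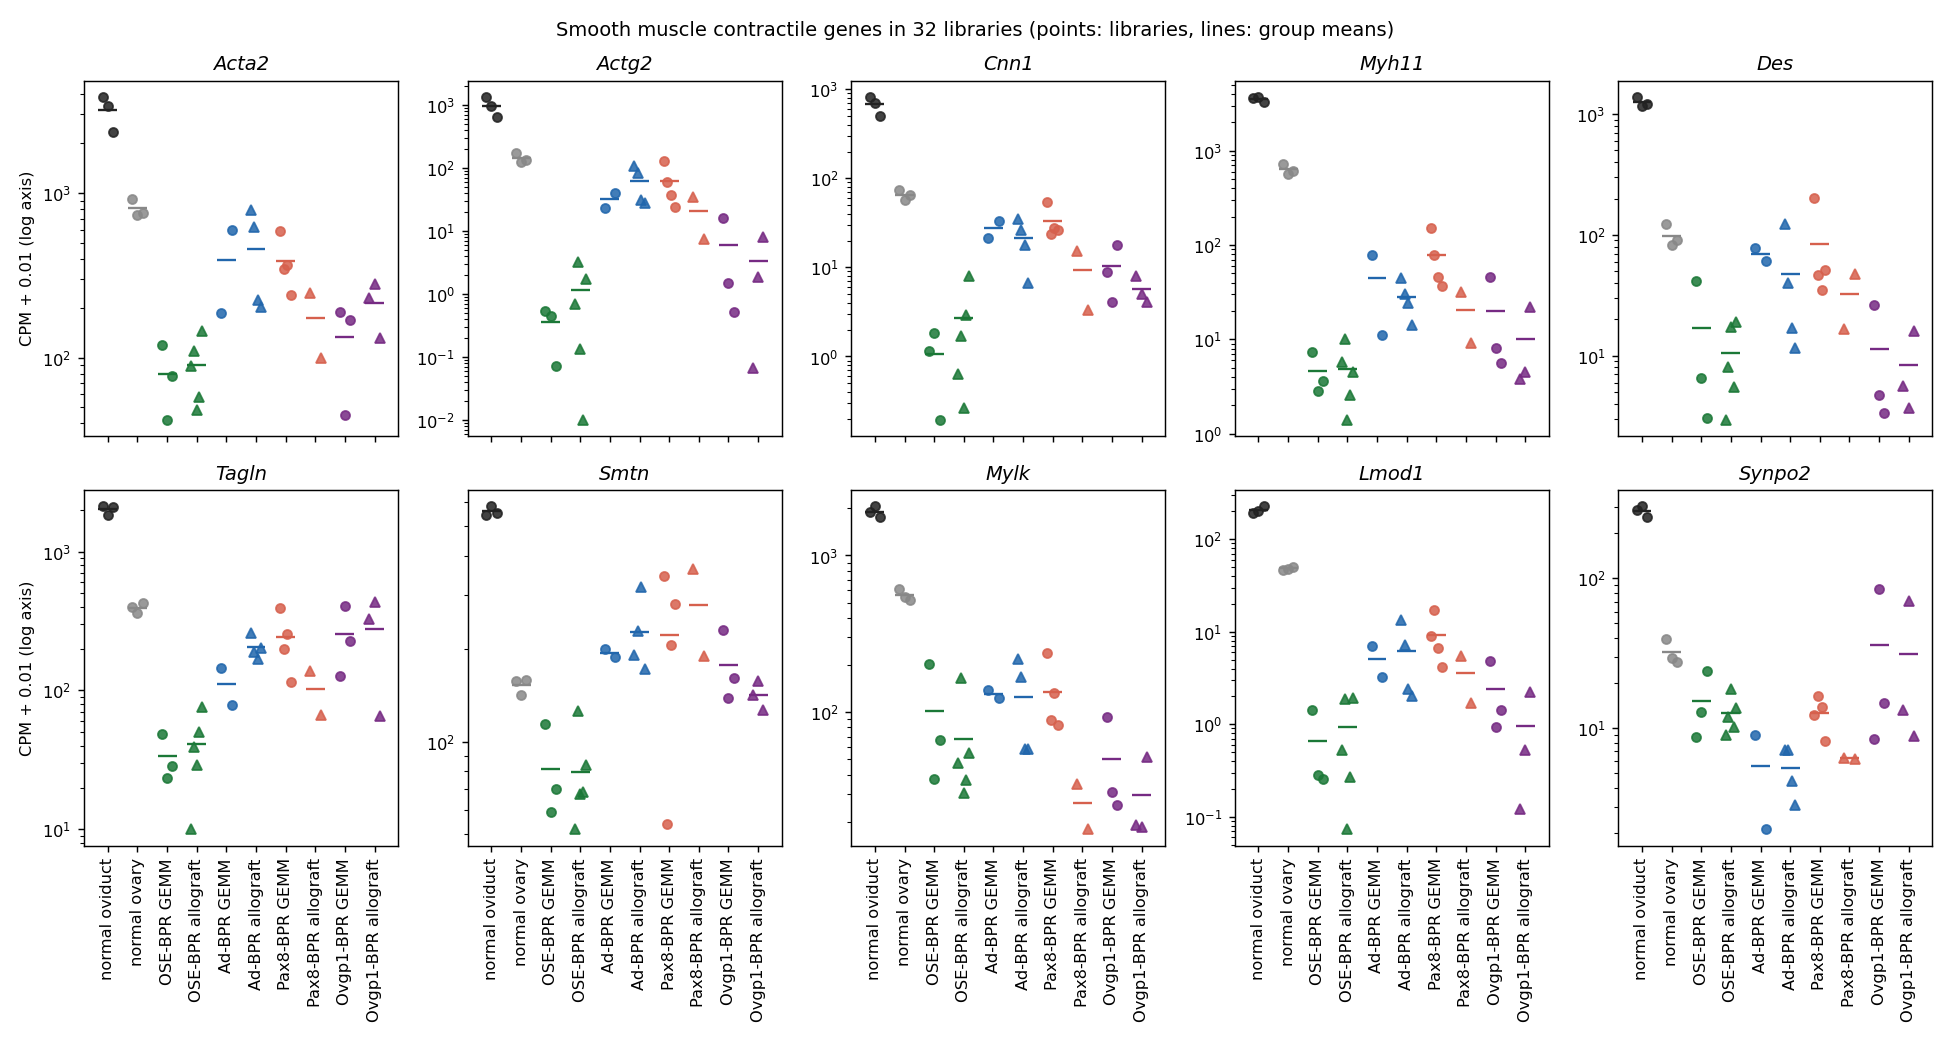
CPM of each member in every library (points, log axis with 0.01 added; circles are GEMM tumours or normal tissue, triangles are allografts; lines are group means). The 3 oviduct libraries lie above every other library for all 10 genes, and OSE-BPR tumours reach the lowest Actg2, Cnn1, Myh11 and Lmod1 levels.

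The next comparison asks how much of the oviduct's muscle RNA is found in primary tumours of the models grouped here as oviduct-origin. All 10 members were lower in the 9 oviduct-origin GEMM tumours (Ad-BPR, Pax8-BPR and Ovgp1-BPR, averaged with equal weight) than in the 3 oviducts, beside 20.9% of 20887 genes called lower. Their median log2 fold change was -4.66, against -0.043 over all genes. The size ran from 2.85-fold lower (Smtn) to 85.9-fold lower (Myh11), and no tumour of the 9 overlapped the oviducts for any member. Without Ovgp1-BPR tumours 2 and 3, which stood apart from tumour 1, all 10 were still lower, in a fit that left 1 Ovgp1-BPR GEMM tumour. All 10 were also called lower in each model alone, beside 12.3% of genes for Ad-BPR, 16.3% for Pax8-BPR and 17.3% for Ovgp1-BPR. These 3 comparisons share the oviduct libraries. The Smtn call in Pax8-BPR ended when only the groups compared were fitted (log2 fold change -1.31, edgeR adjusted p = 0.0915). With oviduct 2 as the only oviduct, some calls ended in Ad-BPR and Pax8-BPR. Their log2 fold changes stayed below 0, as for Smtn (-1.6 in Ad-BPR and -1.37 in Pax8-BPR). With 1 of the 2 Ad-BPR GEMM tumours left out, the group held a single tumour and fewer members were called. Members that lost the call kept log2 fold changes below 0, such as -2.35 for Acta2 without tumour 1 and -1.53 for Smtn without tumour 2.

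Of the actins, Acta2 kept more of its oviduct level than Actg2, the enteric and visceral smooth muscle actin. Acta2 was at 185.8 and 599.7 CPM in Ad-BPR GEMM tumours, 591.6, 345.2, 367.4 and 239.8 CPM in Pax8-BPR and 189.7, 45.14 and 168.5 CPM in Ovgp1-BPR. Every one of these lay below the lowest ovary and the lowest oviduct. The log2 fold change against oviduct was -3.54 ± 0.44 (adjusted p = 1.2e-06).

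Actg2 was at 23.81 and 40.49 CPM in Ad-BPR GEMM tumours, 129.3, 60.34, 37.17 and 24.45 CPM in Pax8-BPR and 16.05, 1.474 and 0.5098 CPM in Ovgp1-BPR, against 1348, 977.9 and 653.9 CPM in oviduct. Ovgp1-BPR tumours 2 and 3 stood far below the others. The log2 fold change was -5.43 ± 0.88 (adjusted p = 3.7e-05). Over all 26 tumours, the median Acta2 level was 5.89% of the oviduct mean (range 1.31% to 24.8%) and the median Actg2 level 0.777% (0% to 13%).

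Among the motor genes, Myh11 had the largest fold change of the 10. It was at 78.71 and 11.26 CPM in Ad-BPR GEMM tumours, 150.8, 79.35, 45.76 and 36.6 CPM in Pax8-BPR and 45.87, 8.133 and 5.608 CPM in Ovgp1-BPR. The highest of these was 4.26% of the oviduct mean. The log2 fold change was -6.42 ± 0.69 (adjusted p = 1.4e-07). Mylk encodes myosin light chain kinase in a long non-muscle form from the upstream start, and the short smooth muscle form and telokin from internal starts, which the gene total does not separate. It was at 137.8 and 123.2 CPM in Ad-BPR, 238.8, 89.05, 131.8 and 82.39 CPM in Pax8-BPR and 93.64, 31.17 and 25.44 CPM in Ovgp1-BPR GEMM tumours. Its log2 fold change was -4.31 ± 0.52 (adjusted p = 8.6e-07), with 1910 ± 144 CPM in oviduct.

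The 4 filament-binding members spread widely. Tagln, the actin-bundling transgelin, was at 145.4 and 78.43 CPM in Ad-BPR GEMM tumours, 394.9, 199.9, 256.6 and 115.5 CPM in Pax8-BPR and 127.2, 406.7 and 226.6 CPM in Ovgp1-BPR, against 2110, 1821 and 2092 CPM in oviduct. It was the only member besides Synpo2 whose Ovgp1-BPR GEMM mean exceeded those of Ad-BPR and Pax8-BPR, though Tagln did not pass the test of that difference (given with the models). Its log2 fold change against oviduct was -3.4 ± 0.44 (adjusted p = 2.4e-06). Cnn1 (675 ± 160 CPM in oviduct, 4.094 to 54.71 CPM in the 9 tumours) and Lmod1, the leiomodin that nucleates muscle actin filaments (206 ± 17.7 and 0.9279 to 17.36 CPM), had log2 fold changes of -5.0 ± 0.62 and -5.41 ± 0.71.

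Smtn, a smoothelin present in contractile muscle, changed least. It was at 199.8 and 187.7 CPM in Ad-BPR, 344.7, 54.17, 205.5 and 279.1 CPM in Pax8-BPR and 230.8, 138.6 and 160.4 CPM in Ovgp1-BPR GEMM tumours, against 545.4, 579.2 and 551.3 CPM in oviduct. Pax8-BPR tumour 2 was the lowest of the 9, and 7 of the 9 lay above all 3 ovaries. The log2 fold change was -1.51 ± 0.32 (adjusted p = 0.00068).

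The 2 members of the cytoskeletal scaffold differed from each other by model. Des was at 78.28 and 61.14 CPM in Ad-BPR GEMM tumours, 200.4, 46.95, 35.26 and 51.11 CPM in Pax8-BPR and 26.06, 4.694 and 3.342 CPM in Ovgp1-BPR (log2 fold change against oviduct -4.96 ± 0.75, adjusted p = 1.8e-05). The Ovgp1-BPR tumours were the lowest 3. Synpo2, the actin-bundling myopodin, was at 9.054 and 2.104 CPM in Ad-BPR, 12.3, 16.31, 13.79 and 8.169 CPM in Pax8-BPR and 8.422, 84.87 and 14.62 CPM in Ovgp1-BPR. Ovgp1-BPR tumour 2 stood alone at 30.2% of the oviduct mean. The log2 fold change was -4.36 ± 0.54 (adjusted p = 1e-06). Des, Tagln, Smtn, Mylk, Lmod1 and Synpo2 overlap genes on the opposite strand, and Synpo2 also on its own strand. Whether reads were counted by strand is not stated in the labels or notes, so reads of such pairs cannot be told apart.

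**Figure D2:**
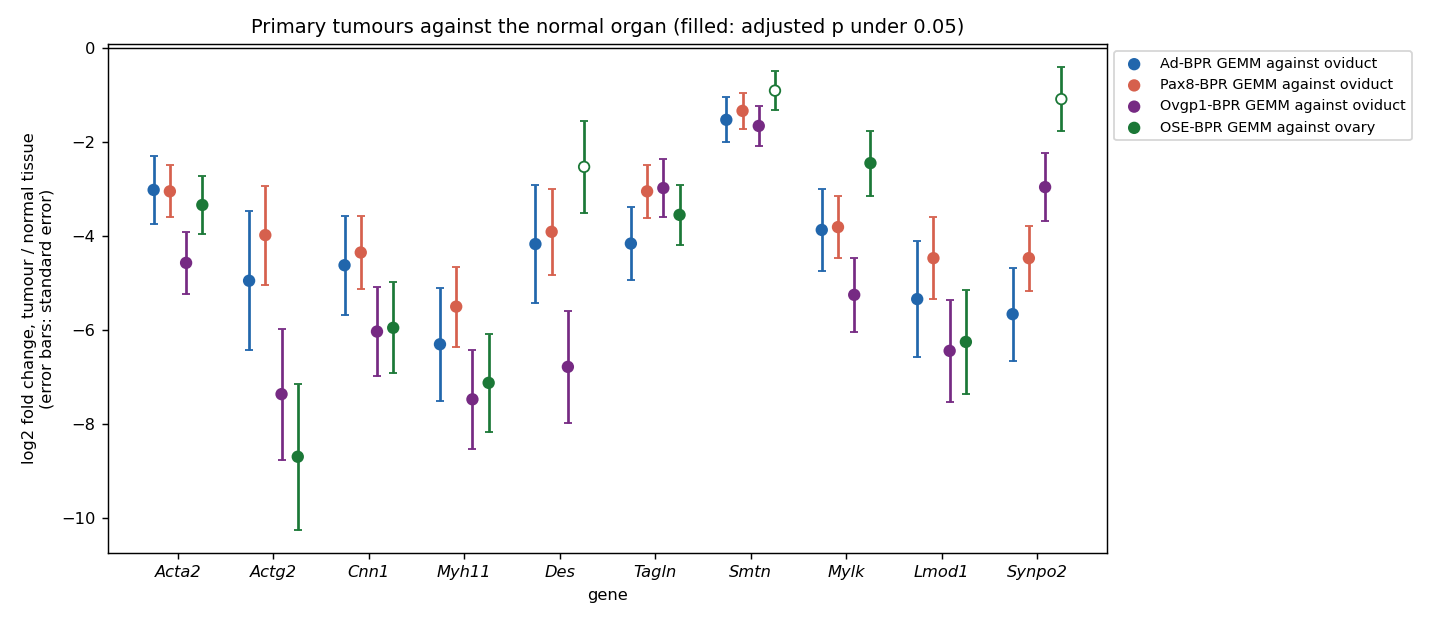
Log2 fold change of each member (points, with standard errors) in GEMM tumours of the 3 oviduct-origin models against normal oviduct and of OSE-BPR against normal ovary; filled points passed an adjusted p of 0.05. All points lie below 0, with Smtn nearest to it, and the 3 open points are Des, Smtn and Synpo2 in OSE-BPR.

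The ratio of 2 genes within a library is little affected by library scaling, and it shows whether they fell by unequal amounts. Ratios were formed from TPM with 0.1 added and compared between the 9 oviduct-origin GEMM tumours and the 3 oviducts by exact two-sided permutation tests, with the smaller tail doubled and adjusted over the 4 ratios. The smallest p this design can give is 0.0091. Myofibroblasts make Acta2 and Tagln, and Myh11, Actg2 and Des stand for differentiated muscle. Acta2 to Myh11 had a mean log2 ratio of 4.85 ± 1.5 in tumours and 1.86 ± 0.27 in oviducts (SD, n = 9 and 3), a difference of 2.99 (exact permutation p = 0.0091, adjusted p = 0.012). Tagln to Myh11 differed by 3.3 and Acta2 to Actg2 by 2.13, with the same p values, so all 3 tests sit at the smallest p they can give. All 9 tumours lay above all 3 oviducts for these 3 ratios. Acta2 to Des differed by 1.52, the groups overlapped, and the test was not passed (exact permutation p = 0.055, adjusted p = 0.055).

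The normal ovary had ratios near those of the oviduct for the myosin pairs, with a log2 Acta2 to Myh11 ratio of 2.39 ± 0.03 and a Tagln to Myh11 ratio of 1.64 ± 0.11 (SD, n = 3). For Acta2 to Actg2 its ratio of 2.03 ± 0.09 lay within the tumours' range, with Pax8-BPR GEMM tumours 1 (1.61) and 2 (1.93) below every ovary. For Acta2 to Des its ratio of 3.88 ± 0.09 lay within the tumours' range of 1.72 to 7.09. Over all 26 tumours the Acta2 to Myh11 ratio ran from 3.1 (Ad-BPR GEMM tumour 1) to 7.92, with a median of 5.69. Its 6 Pax8-BPR tumours were the narrowest set among the oviduct-origin models, at 3.83 to 5.23. The Acta2 to Actg2 ratio was 1.61 to 3.38 in all 12 Ad-BPR and Pax8-BPR tumours, 3.1 to 7.85 in 5 Ovgp1-BPR tumours and 4.64 to 6.58 in 5 OSE-BPR tumours. The other 4 tumours (1 Ovgp1-BPR and 3 OSE-BPR) held at most 3 Actg2 counts, and their ratios rest on those few counts and the 0.1 added.

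**Figure D3:**
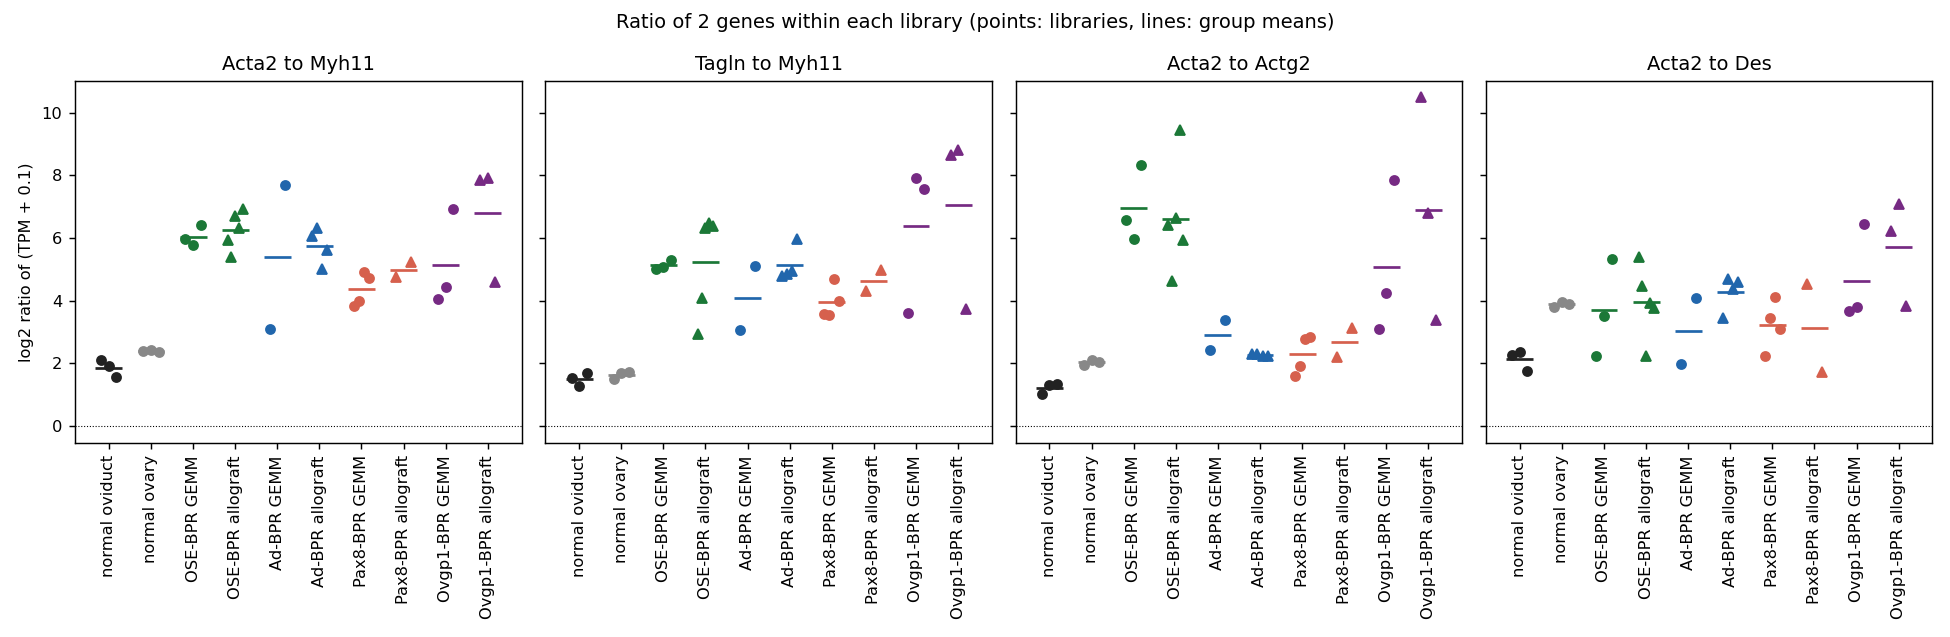
Log2 ratio of TPM (0.1 added) of 2 members within each library (circles are GEMM tumours or normal tissue, triangles are allografts; lines are group means). All 26 tumours lie above all normal libraries for Acta2 to Myh11 and Tagln to Myh11, whereas Acta2 to Actg2 overlaps the ovaries and Acta2 to Des both normal tissues. The 4 tumours with at most 3 Actg2 counts take their Acta2 to Actg2 height from those few counts and the 0.1 added.

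OSE-BPR tumours, of the model given adenoviral Cre under the ovarian bursa, were compared with ovary. Strain differs too in this comparison (FVB against C57Bl/6) and cannot be told apart from tumour. Of the 10 members, 7 fell in the 3 GEMM tumours, beside 11.6% of 20887 genes called lower, and all 10 had fold changes below 0 with no overlap between arms. Actg2 was at 0.5362, 0.4392 and 0.06103 CPM (8, 8 and 1 counts) against 175.1, 125.2 and 135.4 CPM in ovary (adjusted p = 0.00031). Cnn1 was at 1.139, 1.812 and 0.1831 CPM, Lmod1 at 1.407, 0.2745 and 0.2441 CPM. Myh11 was at 7.373, 2.8 and 3.601 CPM, a log2 fold change of -7.12 ± 1.04 against ovary (adjusted p = 4.4e-05). Actg2, Cnn1 and Lmod1 were near the floor of detection in OSE-BPR, while Myh11 still held 110, 51 and 59 counts. Markers of some other cells fell beside the members in this comparison. They were 7 of 7 oocyte genes (median log2 fold change -9.21), 9 of 10 granulosa, theca and luteal genes (-7.62) and 6 of 6 adipocyte genes (-8.67). Also lower were 7 of 8 endothelial genes (-1.72) and 6 of 18 fibroblast and myofibroblast genes (-1.9). Of 9 pericyte genes, 4 fell and 1 rose (-0.99). Other lists went up: 5 of 6 mesothelial and ovarian surface genes rose and 0 fell (3.78). Of 5 myoepithelial and basal epithelial genes, 2 rose and 1 fell (3.72). The summed endothelial level was 104 to 152 TPM in these tumours and 280 to 306 TPM in ovary, and its part in the result was not tested.

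Acta2 and Tagln stayed well above that floor. Acta2 was at 119.8, 41.89 and 77.94 CPM (log2 fold change -3.34 ± 0.62, adjusted p = 0.00049) and Tagln at 48.93, 23.44 and 28.75 CPM (-3.55 ± 0.64, adjusted p = 0.00033). Mylk was at 202.6, 37.55 and 66.28 CPM (-2.45 ± 0.69, adjusted p = 0.013), and its call was lost without tumour 2 (adjusted p = 0.0769) or tumour 3 (0.0643). The members not called were Des (41.69, 6.533 and 3.051 CPM; -2.53 ± 0.98, adjusted p = 0.063), Smtn (-0.91 ± 0.41, 0.12) and Synpo2 (-1.09 ± 0.68, 0.26). Des was high in tumour 1, without which its log2 fold change was -4.34 (adjusted p = 0.00926), and DESeq2 called it with all 3 (0.0249).

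Whether the models differ was tested in the 26 tumours alone. OSE-BPR is on FVB and the other models are on C57Bl/6, so strain cannot be told apart from model where OSE-BPR is compared. Across the 4 GEMM groups, 6 members differed (Acta2, Actg2, Cnn1, Myh11, Tagln and Lmod1), beside 37.2% of 20000 genes, and Des, Smtn, Mylk and Synpo2 did not pass (adjusted p = 0.068, 0.065, 0.33 and 0.074). The Lmod1 call (adjusted p = 0.048) ended without a filter (0.056) and in 9 of 12 fits with 1 tumour left out (0.0583 to 0.132). DESeq2 called Des (0.0187), Smtn (0.0336) and Synpo2 (0.0348) as well. Against the equal-weight mean of the oviduct-origin GEMM groups, 7 members were lower in OSE-BPR, beside 11.1% of genes called lower. Actg2 had a log2 fold change of -6.03 ± 1.53 (adjusted p = 0.0069), Cnn1 -4.32 ± 0.97 (0.0031), Myh11 -3.16 ± 0.89 (0.013), Lmod1 -2.91 ± 1.06 (0.048), Tagln -2.49 ± 0.61 (0.0053), Acta2 -1.77 ± 0.56 (0.025) and Smtn -1.27 ± 0.4 (0.024). Only Cnn1 and Tagln had arms that did not overlap, and the count fell to 3 without OSE-BPR tumour 2 or tumour 3. The share of all genes called in those fits is not given here. Lmod1 was the least stable, with a call that also ended without a low-count filter (adjusted p = 0.0601).

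Mylk and Synpo2 were not called lower in OSE-BPR GEMM tumours, which varied. Mylk was at 202.6, 37.55 and 66.28 CPM in them, and Synpo2 at 8.713, 12.74 and 24.11 CPM. The log2 differences of Mylk and Synpo2 from the oviduct-origin tumours were 0.09 ± 0.59 (adjusted p = 0.94) and 0.16 ± 0.61 (0.89). Des had -1.24 ± 0.9 (0.32). In the allografts, the same contrast called 6 members, all lower, beside 17.4% of genes called lower. Among the 8 OSE-BPR tumours, Mylk was highest in GEMM tumour 1 (202.6 CPM) and allograft 2 (165.9 CPM), and the other 6 lay between 30.4 and 66.28 CPM. Those 2 tumours also had the highest summed TPM of 18 fibroblast and myofibroblast genes in that model (4250 and 2940, against 835 to 2250 in the other 6), and its part in the result was not tested.

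Ovgp1-BPR was set against the mean of Ad-BPR and Pax8-BPR, all on C57Bl/6. The Trp53 genotype by the sample labels and the source of Cre differ too, and cannot be told apart from model. Of the 10 members only Synpo2 was called, with a log2 fold change of 2.1 ± 0.65 (adjusted p = 0.025), beside 12.5% of 20000 genes called higher and 10.2% called lower. The arms overlapped, and the call rested on Ovgp1-BPR tumour 2 (84.87 CPM), without which the log2 fold change was 0.46 (adjusted p = 0.662). It was also lost without Ad-BPR tumour 2 (1.74, 0.119). Tagln differed by 0.62 ± 0.55 (adjusted p = 0.42). Des (-2.74 ± 1.02, 0.057), Actg2 (-2.9 ± 1.25, 0.095) and Acta2 (-1.53 ± 0.58, 0.059) did not pass in edgeR, and DESeq2 called all 3 (adjusted p = 0.00727, 0.0318 and 0.0196).

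The 6 Ovgp1-BPR tumours were not alike. GEMM tumour 1 and allograft 3 had the highest Myh11 (45.87 and 22.1 CPM), Actg2 (16.05 and 7.991), Des (26.06 and 15.98), Mylk (93.64 and 51.54) and Lmod1 (4.767 and 2.196) of the 6, and the lowest Tagln (127.2 and 65.98). GEMM tumours 2 and 3 and allografts 1 and 2 had the reverse, with Tagln at 406.7, 226.6, 326.5 and 435.2 CPM and Myh11 at 8.133, 5.608, 3.809 and 4.449 CPM. Synpo2 was at 84.87, 14.62, 13.28 and 70.93 CPM in those 4, so it was far higher in GEMM tumour 2 and allograft 2 than in the other 4 tumours. Tagln in GEMM tumour 2 and allograft 2 lay within or above the 363.9 to 424.2 CPM of ovary, while Acta2 in all 4 (45.14 to 280.8 CPM) stayed below every ovary. Their Tagln to Myh11 log2 ratios of 7.57 to 8.82 were the highest of the 26 tumours. These 4 were singled out after their values were seen, so no test is given.

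**Figure D4:**
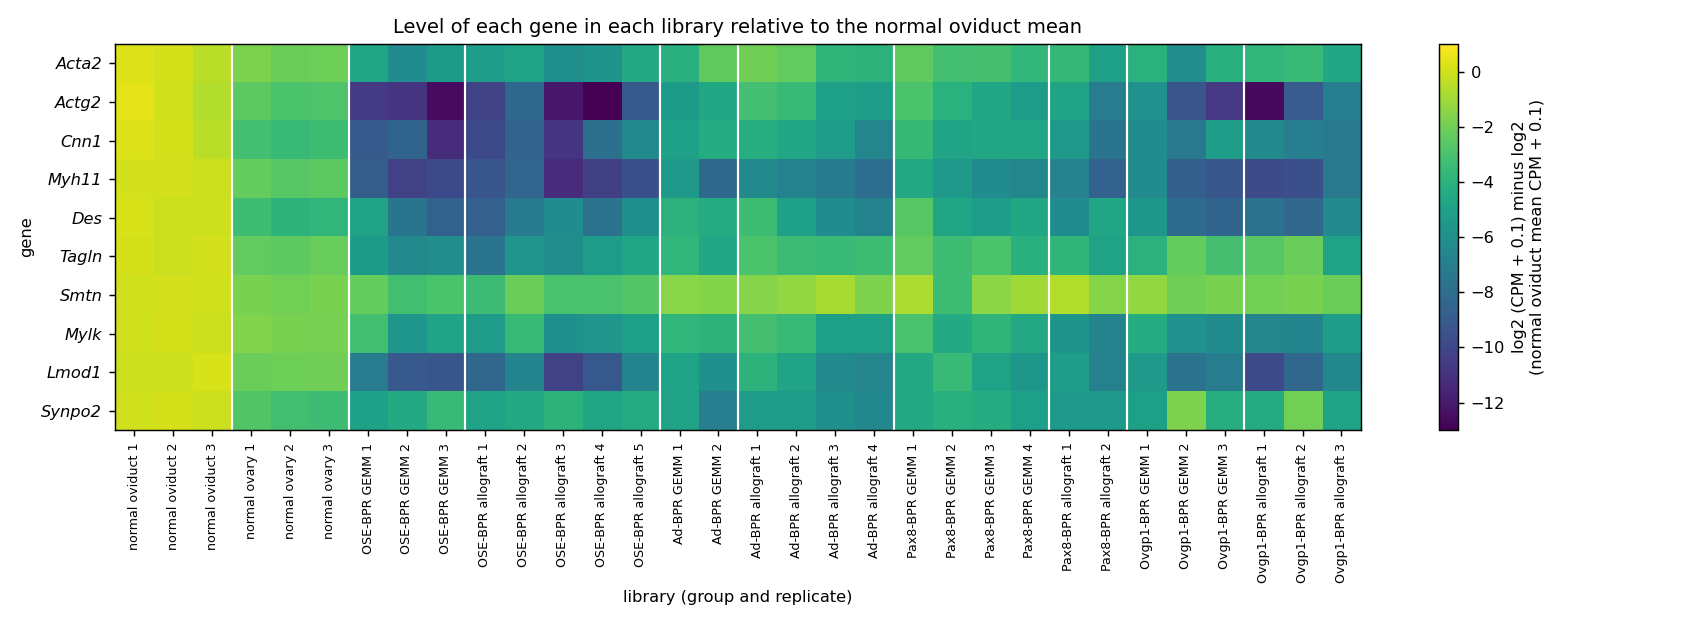
Level of each member in each library as log2 CPM (0.1 added) minus that of the mean oviduct (colour), with groups separated by white lines. Smtn is the brightest row in the tumours, Actg2, Lmod1, Cnn1 and Myh11 are darkest in OSE-BPR, and Ovgp1-BPR GEMM tumour 2 and allograft 2 show bright Tagln and Synpo2 beside dark Actg2 and Myh11.

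Allografts were compared with GEMM tumours over the 4 models at equal weight. None of the members was called, and neither was any of the 20000 genes (0%) in edgeR, with 1210 genes at an unadjusted p under 0.05, 34 genes called by DESeq2 (0.171%) and 0 by limma. The members' log2 differences ran from -0.95 ± 0.37 (Mylk) and -0.87 ± 0.45 (Myh11) to 0.07 ± 0.61 (Actg2). Those of Acta2 and Tagln were -0.02 ± 0.31 and 0.01 ± 0.32. The difference between models in this effect was also called for 0 members and 0% of genes in edgeR, with 902 genes at an unadjusted p under 0.05, 26 genes called by DESeq2 (0.131%) and 1 by limma (0.005%).

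Allograft values were as wide as those of the GEMM tumours. Acta2 was at 791.5, 620.4, 224.6 and 202.7 CPM in Ad-BPR allografts, 248.3 and 99.81 CPM in Pax8-BPR, 231.6, 280.8 and 132.5 CPM in Ovgp1-BPR and 89.71, 109.4, 48.35, 58.21 and 144.9 CPM in OSE-BPR. Actg2 was at 108.2, 85.11, 30.95 and 28.24 CPM in Ad-BPR allografts and 34.87 and 7.442 CPM in Pax8-BPR. In OSE-BPR allografts it was at 0.6883, 3.18, 0.1259, 0 and 1.738 CPM, where the count of 0 allows up to 0.212 CPM (3 counts). Ad-BPR allografts 1 and 2 were the highest of the 14 allografts in both actins, and they also had the highest fibroblast list sums of all libraries (14200 and 10100 TPM).

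Des is also made by skeletal muscle, and 2 allografts held such RNA. The summed TPM of 14 skeletal and cardiac muscle genes was 634 in Ad-BPR allograft 1 and 248 in Pax8-BPR allograft 2, and 2.65 to 41.6 in the other 24 tumours. Acta1, the skeletal actin, reached 165 and 92.3 CPM in these 2. Des was at 122.7 CPM in Ad-BPR allograft 1, against 40.16, 16.92 and 11.65 CPM in the other 3, and at 47.57 CPM in Pax8-BPR allograft 2, against 16.79 CPM in allograft 1. In the Pax8-BPR pair the other 9 members were lower in allograft 2 than in allograft 1. In Ad-BPR allograft 1, by contrast, 8 of the other 9 members (all but Smtn) were also at their highest of the 4 Ad-BPR allografts. The part of skeletal muscle in the Des values was not tested.

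The order of the 10 groups by mean CPM put the oviduct first for all 10 members, with no overlap with the next group. The ovary was the next group for 8 members, and for Smtn and Synpo2 it was Pax8-BPR allografts and Ovgp1-BPR GEMM tumours. OSE-BPR GEMM tumours came last for Acta2, Actg2, Cnn1, Myh11, Tagln and Lmod1. Below the first place, at most 1 of the 8 remaining neighbour pairs of each gene was free of overlap, so the order among tumour groups is mostly within their spread. For Actg2, Cnn1, Myh11, Mylk and Lmod1 that pair was ovary and the highest tumour group.

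The members did not move as a single block over the 26 tumours. Pearson correlations of log2 CPM, which are descriptions over libraries that share models, were 0.92 for Myh11 and Lmod1, 0.89 for Myh11 and Actg2 and 0.82 for Acta2 and Cnn1. They were 0.5 for Myh11 and Tagln, 0.05 for Tagln and Mylk and -0.38 for Acta2 and Synpo2. The 5 genes most like Myh11 among 12409 were Tnfaip8l2 (r = 0.906), Ptafr (0.893), Laptm5 (0.891), Rhog (0.89) and Ptpn1 (0.888). Those most like Acta2 were S100a4 (0.873), Thbs3 (0.856), Tmed3 (0.848), Mmp10 (0.845) and Dynlt1b (0.844). With values centred within each model, these r were 0.682 to 0.748 for the Myh11 genes and 0.625 to 0.791 for the Acta2 genes, and of these 10 genes only S100a4 was still among the 5 most alike.

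Within each model, each member was set against the mean log2 TPM of the 18 fibroblast and myofibroblast genes, GEMM tumours and allografts together. Of 40 relations, 34 had a positive Pearson r and 12 had an exact permutation p under 0.05, and none passed after adjustment over the 40 (lowest adjusted p = 0.092). The highest was Mylk in Ad-BPR (r = 0.94, exact permutation p = 0.011, Spearman rho 0.89, p = 0.033, n = 6, adjusted p = 0.092), which was 0.95 without the 2 tumours farthest from the median. Lmod1 (r = 0.87, exact permutation p = 0.0052, rho 0.87, p = 0.0079, n = 8, adjusted p = 0.092) held at 0.87 in OSE-BPR without those 2, whereas Mylk there (r = 0.88, exact permutation p = 0.012, rho 0.62, p = 0.11) dropped to 0.26 and so rests on those 2. Ovgp1-BPR differed in sign for Tagln, with r = -0.83 (exact permutation p = 0.033, rho -0.6, p = 0.24, n = 6, adjusted p = 0.13), and the difference between models was not tested. With values centred within GEMM tumours and allografts, 7 relations passed (lowest adjusted p = 0.046), all positive. They were Myh11, Mylk and Lmod1 in OSE-BPR and Actg2, Cnn1, Des and Mylk in Ad-BPR. The permutation took no account of the centring, so these p-values may be too small.

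**Figure D5:**
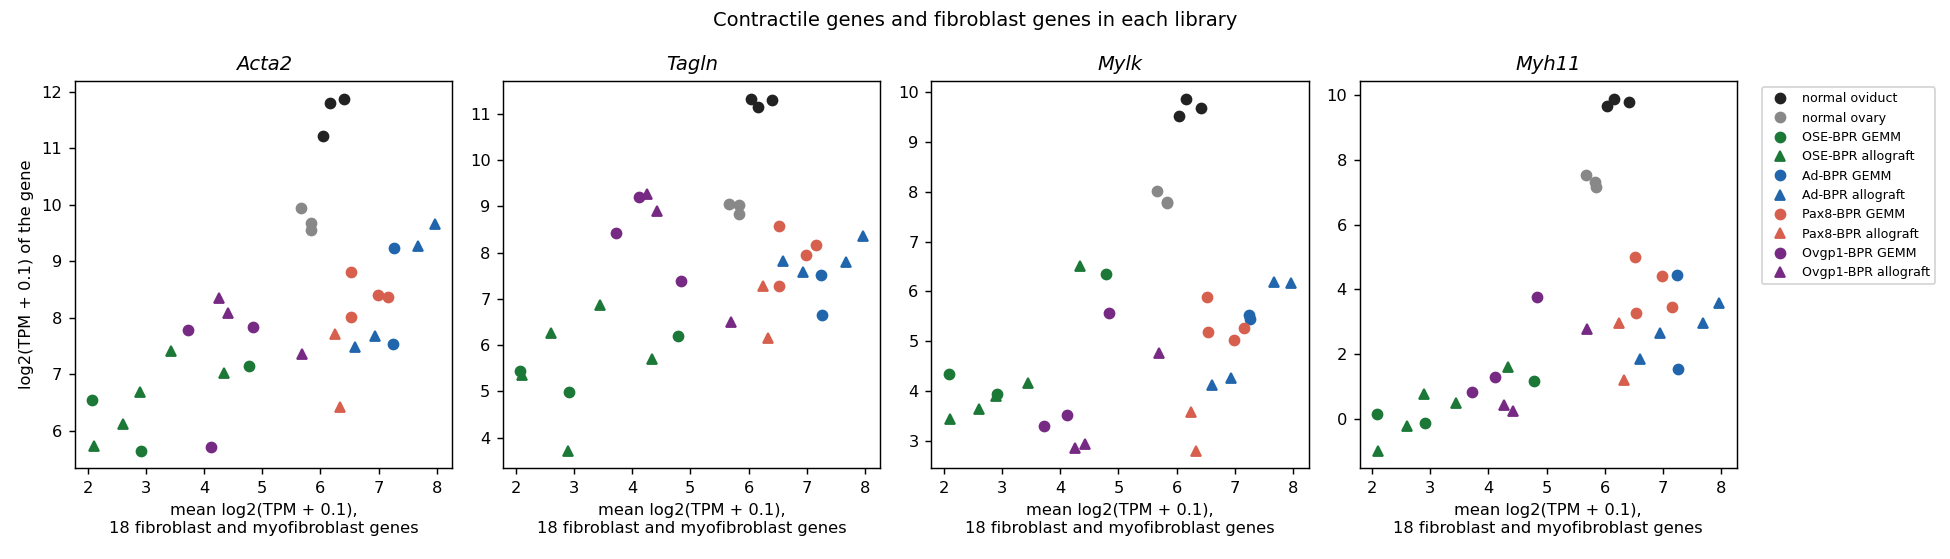
Log2 TPM (0.1 added) of Acta2, Tagln, Mylk and Myh11 against the mean log2 TPM of 18 fibroblast and myofibroblast genes in every library (colours are models, triangles are allografts). Oviduct and ovary lie above all tumours for Mylk and Myh11, Ad-BPR allograft 1 reaches the ovaries for Acta2, and 4 Ovgp1-BPR tumours have high Tagln at a mean fibroblast level of 3.72 to 4.42.

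The regulators and other muscle genes were read from fixed lists. Myocd, the muscle cofactor of SRF, was at 31.8 ± 3.39 CPM in oviduct, 23.9 ± 1.5 CPM in ovary (SD, n = 3 each) and 0 to 1.06 CPM in the 26 tumours. Its log2 fold change in oviduct-origin GEMM tumours against oviduct was -6.49 ± 0.91 (adjusted p = 6.5e-06), and in OSE-BPR against ovary -6.63 ± 1.35 (0.0011). Srf itself was at 102 ± 8.36 CPM in oviduct and 53.6 to 139 CPM in the tumours. Of 7 tested genes of SRF and its cofactors, 2 rose (Mrtfa by 0.9 ± 0.27 and Elk4 by 0.76 ± 0.19 on the log2 scale) and 1 fell, Myocd.

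Of 26 other smooth muscle genes, which include Myocd, 25 rose from ovary to oviduct and 19 fell in oviduct-origin GEMM tumours, with a median log2 fold change of -2.01. Pln, the phospholamban that restrains the calcium pump, had the largest drop (-8.59 ± 0.92, adjusted p = 9.6e-07). In OSE-BPR against ovary, 13 of the 26 fell and 1, Cald1, rose by 1.04 ± 0.3 (adjusted p = 0.014). Cald1 encodes caldesmon, which has muscle and non-muscle forms. Between Ovgp1-BPR and the mean of Ad-BPR and Pax8-BPR, 3 of 25 tested rose and 6 fell, with Tpm2, a tropomyosin, at -4.13 ± 1.12 (adjusted p = 0.013).

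Markers of other cells, some of which make these proteins, were read in the same comparisons. Of the 18 fibroblast and myofibroblast genes, 3 rose and 4 fell in oviduct-origin GEMM tumours against oviduct, with a median log2 fold change of -0.12. Beside this, 14.8% of all genes were called higher and 20.9% lower. By model, 4 rose and 1 fell in Ad-BPR (median 0.66, 11.7% of genes called higher and 12.3% lower). In Pax8-BPR 5 rose and 1 fell (0.38, 15.9% higher and 16.3% lower). In Ovgp1-BPR 0 rose and 9 fell (-2.43, 17.3% of genes called lower). Their summed level was 4960 to 7120 TPM in oviduct, 3500 to 3820 TPM in ovary and 835 to 14200 TPM in the 26 tumours. Tnc rose by 3.69 ± 1.17 and Thbs2 by 3.17 ± 0.73, and Dcn fell by 2.32 on the log2 scale. In Ovgp1-BPR against Ad-BPR and Pax8-BPR, 12 of the 18 fell and 1 rose, with Lrrc15 at -7.42 ± 1.38 (adjusted p = 0.0011); their median was -3.33, and that of the members -1.54. In OSE-BPR against the oviduct-origin tumours, 12 fell and 0 rose, with a median of -2.57 beside -2.13 for the members. Of 9 pericyte genes, 2 rose and 3 fell against oviduct. Their summed level was 326 to 403 TPM in oviduct and 74.3 to 312 TPM in tumours, and Rgs5, a regulator of G protein signalling, was at 10.2 to 126 CPM in tumours and 96.1 ± 20.6 CPM in oviduct. Of 8 endothelial genes 4 fell, and of 6 adipocyte genes all 6 fell, with medians of -0.95 and -7.2. By model, 6 adipocyte genes were called lower in Ovgp1-BPR, 1 in Ad-BPR and 1 in Pax8-BPR (medians -11.47, -5.05 and -3.62). Of 14 skeletal and cardiac muscle genes, 0 rose and 5 fell, from a sum of 61.7 to 66.8 TPM in oviduct, where Myh4 was at 0 in all 3 libraries. Of 11 non-muscle actomyosin genes, 6 rose and 1 fell. Among them Myl12a, a non-muscle myosin light chain, rose by 2.01 ± 0.31 and Cnn2, the non-muscle calponin, fell by 1.07 on the log2 scale. Of 5 myoepithelial and basal epithelial genes, 2 rose and 1 fell, and Krt5 was at 7.31 to 936 CPM in the 6 Pax8-BPR tumours and 0 to 1.94 CPM in the 8 OSE-BPR tumours. No gene of these lists was at 0 in every tumour. In oviduct-origin GEMM tumours against oviduct, 9 of 10 granulosa, theca and luteal genes fell (median -7.65). So did 7 of 7 oocyte genes (-5.68) and 5 of 8 oviduct epithelial genes (-3.32), and none of these rose. The part of these cells in the members' values was not tested.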

How the data were processed

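Total RNA was sequenced, and gene tables for 32 libraries were used. RSEM expected counts and TPM were deposited by the authors. The submitters' processing notes name STAR 2.7.0f, RSEM 1.3.1, cutadapt 1.18, Picard and bcl2fastq, and give mm10 and GRCm38 as builds. Every value column belonged to a sample (0 did not), and all 55450 gene IDs matched GENCODE M21. RSEM divides reads shared between genes, and at most 0.34% of the 50-base windows of a member (Myh11) were shared with another gene.

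Expected counts were rounded and tested with edgeR 4.0.16 (quasi-likelihood F test, TMM, filterByExpr with a minimum count of 10 and a minimum total of 15) in R 4.3.3. Fits held the 6 normal libraries (17334 genes), the 26 tumours (20000) or all 32 (20887), with groups sharing the estimate of spread. Adjusted p-values cover all genes of a fit. Standard errors were obtained as the absolute log2 change over the root of the F statistic. Oviduct-origin is a name for the Ad-BPR, Ovgp1-BPR and Pax8-BPR groups at equal weight on the log scale, and where each tumour began was not tested. CPM use all 32 libraries. Ratios and relations used exact permutation tests (scipy 1.17.1) on log2(TPM + 0.1). DESeq2 1.42.0 and limma 3.58.1 served as alternatives, and the test was checked on simulated counts.

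The normal tissues came from the same 3 animals, and deviations correlated between tissues of an animal at -0.106, -0.068 and 0.077. The lowest chi-square per degree of freedom of 39 library pairs within groups was 10.9, so no library was a duplicate of another in its group. Pairs from different groups were not examined. The labels do not say which GEMM tumour an allograft came from, so p-values may measure a spread smaller than that between animals.

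All 10 members are named whatever their value. From the lists of other smooth muscle genes, SRF and cofactors, fibroblast and myofibroblast, pericyte, skeletal and cardiac muscle, myoepithelial and basal epithelial, non-muscle actomyosin, endothelial, adipocyte, and granulosa, theca and luteal genes, up to 2 called genes with the largest change in each direction are eligible, with Myocd, Srf, Col1a1, Postn, Rgs5, Acta1 and Krt5. The genes most like Myh11 and Acta2 are the 5 with the highest Pearson r of log2 CPM (prior count 2) among those with a mean of at least 1. The members, lists and tests were chosen with earlier results of these data known. The fits without oviducts 1 and 3, without Ovgp1-BPR GEMM tumours 2 and 3 and over allografts, and the centred likeness, were chosen after seeing the data.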

Additional observations from a re-analysis of the deposited data

Results flagged for a closer look

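In the groups of 4 or 5 libraries, 30 sets of values (10 members in 3 groups) were examined for a library far from the others, and chance flags about 1 in 20. Cnn1 in Pax8-BPR GEMM tumour 1 was at 54.71 CPM, with the other 3 at 23.8 to 27.36 CPM. Des in the same tumour was at 200.4 CPM, with the other 3 at 35.26 to 51.11 CPM. That tumour also had the highest Acta2, Actg2, Myh11, Tagln, Smtn and Mylk of its group. Mylk in OSE-BPR allograft 2 was at 165.9 CPM, with the other 4 at 30.4 to 55.23 CPM.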

How the results depend on the processing

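Alternatives were limma on log2(TPM + 1) and log2(TPM + 0.1), DESeq2, RLE factors, no filter, fewer or more groups in the fit, and each library left out in turn. Among the results whose call changed, no direction reversed. That statement does not cover differences near 0 that were not called, such as those of Mylk and Synpo2 in OSE-BPR against oviduct-origin GEMM tumours. For the comparisons as a whole, 252 alternatives stayed on their side of the threshold or near the count, 9 moved and 3 gained the call. Oviduct against ovary gave 10 members in its own fit and 10 with the animal as a replicate block. It gave 6 in the fit of all 32 libraries and fewer without oviducts 1 and 3 in that fit. Leaving out 1 library gave 5 to 10 members for Ad-BPR GEMM against oviduct, 3 to 7 for OSE-BPR against oviduct-origin GEMM tumours and 0 to 1 for Ovgp1-BPR against Ad-BPR and Pax8-BPR. The count of relations with the fibroblast list rose from 0 to 7 after centring, of which the permutation took no account. The Acta2 to Des ratio differed by 1.6 with CPM in place of TPM (adjusted p = 0.036) and by 1.17 to 1.73 with 1 library left out. The causes of these changes were not tested, beyond fewer samples where libraries were left out. For single members, 1880 alternatives left the call as it was, 60 ended it and 30 gained it. Depth limits Actg2, Cnn1 and Lmod1 in OSE-BPR tumours, where single libraries held 0 to 129 counts. The block changed no member's call.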
